A study of Rattus norvegicus with 33 samples.

Results

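The comparison described here set the left lumbar spinal dorsal horn (LDH) against the right in adult rats that had been injected in the left hindpaw as pups on postnatal day 12 (P12). Its members were the 10 arrays titled as left or right spinal cord at that age (5 left, 5 right) out of 33 arrays in the series, and all 232 probes of the P12 array design were read on each. All rats were male and tissue was taken at postnatal day 60 (P60), and the strain was not given in the sources used here. Each array had 2 channels: RNA of rats given 0.25% carrageenan, a seaweed polysaccharide that inflames the skin, at 1 µl per g of body weight, and RNA of the same side of the cord of control rats. Each treatment kept its own Alexa dye throughout, and the labels mention no swap of dyes. The value of a probe on an array is a log ratio of the channels. Its base was read as 2 and its direction as carrageenan over control, the order of channels in the labels, but neither is stated, so signs are given as deposited. A difference of left minus right is therefore a difference between 2 ratios, not between levels on the 2 sides. A dye effect that all arrays share cancels in it. A positive difference means that the ratio was higher on the left, the injected side.

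The dorsal horn receives the sensory fibres of the body, including those that signal damage, and fibres of a paw enter the cord on their own side. Glutamate and peptides such as substance P carry the signal forward, while GABA, opioid peptides and fibres from the brainstem that release serotonin and noradrenaline restrain it. The left side thus held the terminals of the injected paw and the right side those of the opposite paw, and the comparison asks which ratios depended on the injected side. The study sampled rats both at baseline and during a second inflammation of the same paw, caused by complete Freund's adjuvant in adult life, and the labels do not say which arrays these were. Whether the 5 arrays of a side came from separate rats is not stated, so each p-value reflects only how far these arrays vary, which may be technical. The array carried 0 of 20 listed marker genes of neurons, glia, blood cells and nerve sheath, so the dissection could not be checked with them.

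Before any comparison, left replicates 4 and 5 stood apart from the other 8 arrays. Over the 232 probes, left replicates 1, 2 and 3 correlated with each other at Pearson's r of 0.42 to 0.46, and the 5 right arrays at 0.26 to 0.44. Left replicates 4 and 5 correlated with the other arrays and with each other at 0.018 to 0.18. Correlations are across probes, which share arrays and are not replicates. No pair of arrays was near identical and none correlated below 0. The spread of the log ratios over probes was alike on both sides, with a mean array SD of 0.98 ± 0.16 (SD, n = 5) on the left and 0.98 ± 0.087 on the right (exact permutation p = 1). Array medians were 0.0054 ± 0.0043 on the left and 0.020 ± 0.013 on the right (two-sided exact permutation p = 0.0556, adjusted over 3 array measures 0.131). The share of probes with a positive log ratio was 50.0% ± 1.10 on the left and 52.1% ± 1.79 on the right (exact permutation p = 0.0873, adjusted 0.131). For a single probe the values varied more among left arrays: the median SD was 0.63 on the left against 0.51 on the right. The left SD was the larger for 151 of 232 probes. Over left replicates 1, 2 and 3 alone the median SD was 0.55. An SD over 3 arrays tends to come out lower than one over 5, so no fall in spread is read from this.

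**Figure D1:**
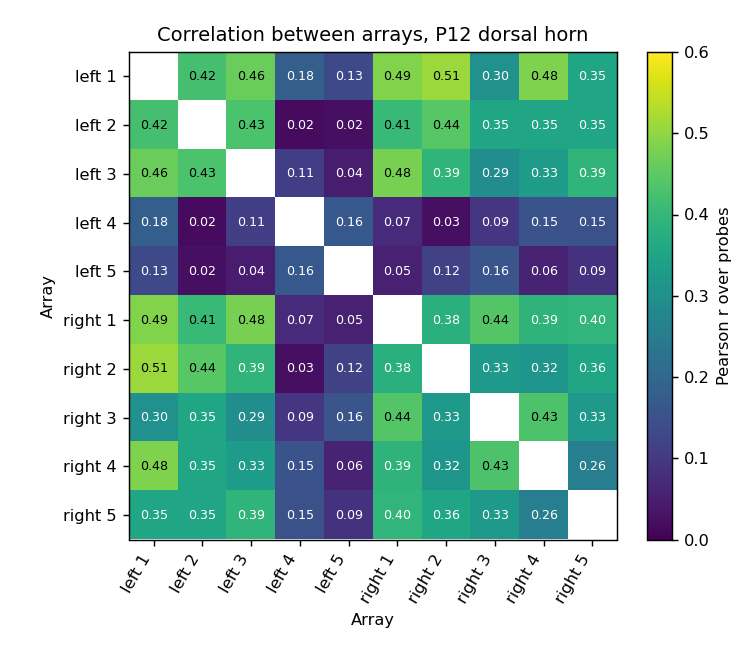
Pearson's r between each pair of the 10 P12 dorsal horn arrays over 232 probes, with arrays on both axes and r as colour and number. Rows and columns of left replicates 4 and 5 lie between 0.02 and 0.18, and all other pairs between 0.26 and 0.51.

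No probe passed the test for a difference between the sides. Of 232 probes tested with limma, 0 (0%) had an adjusted p under 0.05, and the smallest adjusted p was 0.741. At an unadjusted p under 0.05 there were 9 probes (3.88%), 3 higher (1.29%) and 6 lower (2.59%) on the left. The expected number when nothing differs is 11.6. The count was not stable around that number: it was 20 without left replicate 3 and 27 with robust regression, and the adjusted count was 0 in both. The exact permutation test of single probes, whose smallest p with 5 against 5 is 0.00794, put 10 probes under 0.05 without adjustment. Left and right arrays did not overlap for 2 probes (0.862%). One was Adra1d and the other an unnamed probe (probe 41) with -0.12 ± 0.074 on the left and -0.0014 ± 0.021 on the right. The means of the sides went together over probes (r = 0.67, a description across probes on arrays of one design). Both means were positive for 89 probes, both negative for 80, and opposite in sign for 63. Of 37 probes with a mean beyond 1 in size on either side, 32 had the same sign on the other. The brain means at P12 also went with those of the cord (r = 0.41 with the left, 0.51 with the right). Agreement of means was thus not particular to the 2 sides.

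The differences were measured with wide errors. The median absolute difference was 0.25 log units, and 16 probes differed by more than 1. The 95% interval of the difference reached a median of 0.87 to either side and lay wholly between -1 and 1 for 89 of 232 probes (38.4%). For the other 143 the interval reached past 1 in size, so a difference that large is not shown to be absent. In the paragraphs that follow, means stand with the SD over 5 arrays of a side, differences with the SE of the limma fit, and p-values are unadjusted unless named otherwise. Each named probe had a limma adjusted p of at least 0.741. Arrays are listed as replicates 1 to 5, and probe numbers are row numbers of the deposited table.

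**Figure D2:**
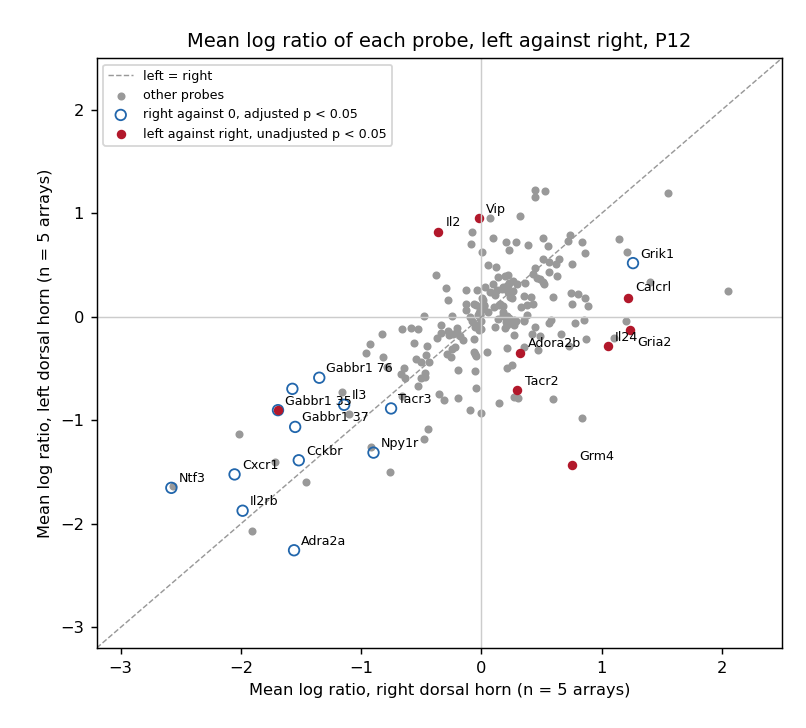
Mean log ratio of each of 232 probes in the right (x axis) and left (y axis) dorsal horn after injection at P12, 5 arrays each, with the dashed line where both are equal. Filled red points have an unadjusted limma p under 0.05 for left minus right (9 probes) and open blue circles an adjusted p under 0.05 for the right mean against 0 (13 probes, all of the same sign on the left).

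Among peptides and their receptors, the smallest p belonged to Vip, vasoactive intestinal peptide, a transmitter of visceral and skin afferents. The left arrays read 1.49, 0.10, 0.94, 0.48 and 1.74, and the right arrays 0.099, 0.013, -0.45, 0.33 and -0.11. All left values were positive, the right ones lay on both sides of 0, and the ranges overlapped through left replicate 2. The means were 0.95 ± 0.68 and -0.023 ± 0.29, a difference of 0.97 ± 0.33 (95% interval 0.25 to 1.70, p = 0.0135, exact permutation p = 0.0159). Without left replicates 4 and 5 the difference was 0.87. Differences of the Vip receptors were smaller in size: Vipr1 differed by -0.38 ± 0.29, and the 2 probes of Vipr2 by -0.47 ± 0.40 and 0.080 ± 0.28.

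In the tachykinin family, whose peptides include substance P and are released by pain fibres, the smallest p-values belonged to the receptors Tacr2 and Tacr3. Tacr2, the neurokinin A receptor, read -1.13, 0.03, -1.83, -0.46 and -0.17 on the left and -0.19, -0.083, 0.32, 0.45 and 0.99 on the right. Left replicates 1, 3 and 4 lay below every right value and the other 2 within the right range. Means were -0.71 ± 0.76 and 0.30 ± 0.47, a difference of -1.01 ± 0.38 (95% interval -1.86 to -0.16, p = 0.0245, exact permutation p = 0.0397). Tacr3, the neurokinin B receptor, had negative means on both sides at both of its probes. Probe 157 had -1.09 ± 0.55 and -0.44 ± 0.34 (difference -0.64 ± 0.30, p = 0.0541, exact permutation p = 0.0794), and probe 158 had -0.89 ± 0.82 and -0.75 ± 0.26 (difference -0.13 ± 0.37). The 4 probes of Tac1, the substance P precursor, which carry 1 sequence entry, differed by -1.81, -0.39, -0.45 and 0.048. The first of these rested on 1 array: right replicate 3 read 5.62, and the other 4 right arrays lay between -1.21 and 0.47. Without that array the difference was -0.62.

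In the calcitonin gene-related peptide (CGRP) system, whose peptide marks many pain fibres, the receptor Calcrl read 0.39, -0.51, 0.68, 0.10 and 0.25 on the left and 0.29, 0.40, 2.46, 0.86 and 2.10 on the right. The right mean was carried by replicates 3 and 5, and the other 3 right arrays lay within or just above the left range. The difference was -1.04 ± 0.46 (95% interval -2.05 to -0.026, p = 0.0454, exact permutation p = 0.0556). The peptide genes had smaller differences: the 3 probes of Calca differed by 0.26, 0.14 and 0.015, and Calcb by -0.23 ± 0.29. At the Calca probes with 0.26 and 0.14, left replicates 4 and 5 were listed at exactly 0, so near equality is not read from them. Over the whole tachykinin and CGRP list, 10 of 14 probes were lower on the left with a median difference of -0.18, against 125 of 232 and -0.036 over all probes. The 14 probes cover 7 genes and share arrays, so nothing particular to this family is read from the count.

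The opioid genes, which damp pain signals in the dorsal horn, had their largest differences at Oprl1 and Pdyn. Oprl1 encodes the nociceptin receptor, and its probe 190 read 0.24, 1.68, -0.061, -0.56 and -2.31 on the left and 1.69, 1.31, 1.79, 0.055 and 0.67 on the right. Left replicate 5 lay lowest and left replicate 2 near the highest right values, and without left replicates 4 and 5 the difference moved from -1.30 ± 0.66 to -0.49. Without left replicate 5 alone it was -0.78. The other Oprl1 probe differed by -0.029 ± 0.19. Pdyn, the dynorphin precursor, read -0.45, 0.14, -1.10, -0.17 and -0.73 on the left and -0.082, -0.48, 0.64, 0.24 and 0.97 on the right, with means of -0.46 ± 0.49 and 0.26 ± 0.58. Its difference was -0.72 ± 0.33 (95% interval -1.46 to 0.017, p = 0.0546, exact permutation p = 0.0635), with 4 of 5 left arrays negative and 3 of 5 right arrays positive. The receptors Oprd1, Oprk1 and Oprm1 differed by -0.30 ± 0.21, -0.58 ± 0.47 and 0.30 ± 0.35. The 3 probes of Penk, the enkephalin precursor, gave 0.67, -0.40 and -0.12. The first rested on left replicate 3, which read 2.84, and was 0.15 without it. Without the same array Oprk1 was at -0.25. Of 13 opioid probes, 9 were lower on the left (median -0.12), against 125 of 232 over all probes (median -0.036). These probes share arrays and some are repeat probes of a gene, so nothing particular to opioid genes is read from this.

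**Figure D3:**
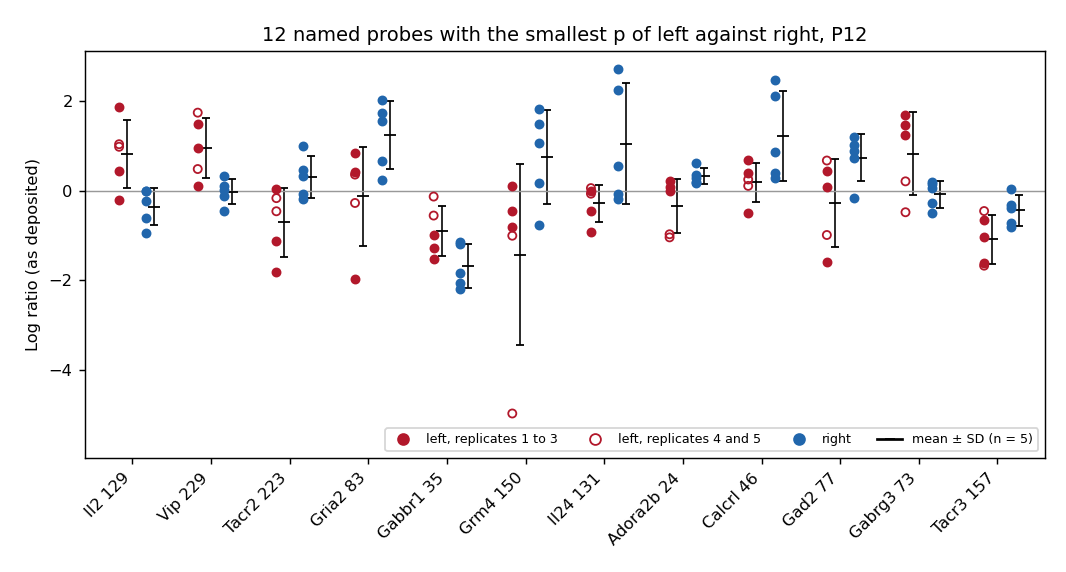
Log ratio on every array (y axis) for the 12 named probes with the smallest unadjusted p of left against right (x axis, gene and probe number), with left in red (open circles for replicates 4 and 5), right in blue, and bars for mean ± SD of 5 arrays. The sides overlap for each of the 12 probes, and the longest bar, for Grm4 on the left, follows 1 array at -4.98.

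For glutamate, the main excitatory transmitter of the dorsal horn, the smallest p-values of left against right belonged to Gria2 and Grm4. Gria2 is the AMPA receptor subunit that limits calcium entry, and its probe 83 read 0.84, 0.42, -1.97, -0.28 and 0.36 on the left and 1.73, 0.67, 0.24, 2.02 and 1.55 on the right. All right values were positive and the left ones fell on both sides of 0, with overlap. The difference was -1.37 ± 0.55 (95% interval -2.59 to -0.15, p = 0.0314, exact permutation p = 0.0556), and -0.91 without left replicate 3, while the second Gria2 probe, of another sequence entry, differed by 0.11 ± 0.29. Grm4, a metabotropic receptor that restrains transmitter release, had the largest difference in size at probe 150. It read -0.46, 0.11, -0.82, -4.98 and -1.01 on the left and 1.06, 0.17, 1.82, 1.48 and -0.77 on the right, so that left replicate 4 lay far below all other arrays. The difference of -2.18 ± 0.91 (95% interval -4.21 to -0.15, p = 0.0374, exact permutation p = 0.0317) became -1.30 without left replicate 4, and the other Grm4 probe gave 0.25 ± 0.35. Without left replicates 4 and 5 it was -1.14.

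The kainate receptor subunits Grik3 and Grik5 also differed by more than 1 in size, each through 1 or 2 arrays. Grik3 probe 89 read 0, 1.14, 3.67, -0.22 and 5.66 on the right, with replicates 3 and 5 far above the rest, against -0.20, 1.54, 0, 0.11 and -0.20 on the left. Grik5 read 1.45, -0.63, -4.62, 0.35 and -0.47 on the left, with replicate 3 far below, against 0, 0.21, 0.90, 0.93 and -0.52 on the right. Their differences were -1.80 ± 1.06 and -1.09 ± 0.95, with p-values of 0.118 and 0.278, and the other Grik3 probe gave 0.089 ± 0.25. Without right replicate 5 the Grik3 difference was -0.90, and without left replicate 3 that of Grik5 was -0.13. The metabotropic receptor Grm6 differed by -1.09 ± 0.53, but left replicate 5 read -2.22 and the next lowest left array, replicate 4, read -0.21. Without left replicates 4 and 5 the Grm6 difference was -0.42. Grm3 differed by -0.58 ± 0.34, whereas Grm2, Grm5, Grm7 and Grm8 lay between 0.028 and 0.11. Ionotropic receptor probes were lower on the left in 13 of 23 cases (median -0.091) and metabotropic ones in 3 of 8 (median 0.028). Over all probes 125 of 232 were lower (median -0.036).

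The GABA genes, which serve inhibition in the dorsal horn, had differences in both directions. Gad2, an enzyme that makes GABA, read 0.089, 0.43, -1.60, 0.67 and -0.99 on the left and 0.89, 1.02, 0.72, 1.19 and -0.16 on the right. Left replicates 3 and 5 lay lowest and the sides overlapped, with a difference of -1.01 ± 0.46 (95% interval -2.04 to 0.013, p = 0.0524, exact permutation p = 0.0794). Gad1, the other enzyme of this step, differed by 0.079 ± 0.25, and the GABA transporter Slc6a11 by -0.89 ± 0.59. Gabrg3, a subunit of the GABA-A receptor channel, read 1.69, 1.24, 1.47, -0.48 and 0.21 on the left and 0.20, -0.51, 0.047, -0.28 and 0.14 on the right. Its left replicates 1, 2 and 3 lay above every other array and replicates 4 and 5 within or just beyond the right range. The difference was 0.90 ± 0.41 (95% interval -0.012 to 1.82, p = 0.0525, exact permutation p = 0.0873). Without left replicates 4 and 5 it was 1.54 with a limma adjusted p of 0.0456. Over the settings tried the adjusted p of Gabrg3 ran from 0.0456 to 0.907. Those 2 arrays were picked for their low correlation with the rest, which favours agreement among the arrays left, so this value is no support for a difference. The remaining 13 GABA-A and GABA-C subunit probes had differences from -0.71 (Gabra5) to 0.61 (Gabrd), with a list median of 0.022.

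Gabbr1, a subunit of the GABA-B receptor, had 7 probes on 3 sequence entries, and their differences had both signs. Probe 35 read -1.53, -0.99, -1.29, -0.13 and -0.56 on the left and -1.14, -2.20, -2.07, -1.20 and -1.85 on the right, negative on every array and lower on the right. Its difference was 0.79 ± 0.33 (95% interval 0.057 to 1.52, p = 0.0372, exact permutation p = 0.0556), and 0.42 without left replicates 4 and 5. Probes 37 and 76 had negative means on both sides, lower on the right, with differences of 0.49 ± 0.46 and 0.76 ± 0.35. Each had a left array above 0. Without left replicates 4 and 5 their differences were -0.13 and 0.38. Probe 36, of the same sequence entry as probe 35, had positive means of 0.18 ± 0.51 and 0.86 ± 0.58 and a difference of -0.68 ± 0.34. Probes 34, 38 and 224 gave -0.27, -0.52 and -0.020. Averaged over the 7 probes the difference was 0.077 ± 0.21. Of the 30 genes with several probes, 13 had all their probes on the same side of 0. Taken in pairs, probes of one gene shared the sign of the difference in 38 of 77 pairs (49.4%).

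Among receptors for amines and adenosine, Adra1d was the named probe whose arrays did not overlap, 1 of 232 (0.431%) with all left arrays above all right arrays. Adra1d, an alpha-1 adrenergic receptor, read 0.078, 0.081, 0.009, 0.024 and 0.60 on the left and -0.64, -0.24, -0.27, -0.23 and 0 on the right. The gap between the lowest left and the highest right value was small, since 4 of 5 left values lay under 0.1 and right replicate 5 was listed at exactly 0. The difference was 0.43 ± 0.20 (95% interval -0.011 to 0.88, p = 0.0547, exact permutation p = 0.00794, the smallest that 5 against 5 arrays can give). Adora2b, an adenosine receptor, read 0.20, -0.0030, 0.085, -1.04 and -0.98 on the left and 0.27, 0.62, 0.35, 0.17 and 0.20 on the right. Left replicates 4 and 5 alone lay far below, and without them the difference moved from -0.67 ± 0.29 to -0.23. Serotonin receptor and transporter probes were split nearly evenly, 7 higher and 9 lower on the left (median -0.022). Of adrenergic probes 7 were higher and 4 lower (median 0.088), against 107 higher and 125 lower over all probes (median -0.036).

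Of all probes, Il2 had the smallest p. It encodes interleukin 2, the growth factor of T cells, and its probe read -0.21, 1.86, 0.45, 1.03 and 0.98 on the left and -0.94, -0.60, -0.24, -0.0060 and 0 on the right. Of the left values 4 of 5 were positive and above every right value, and left replicate 1 fell within the right range, where no value was positive. The means were 0.82 ± 0.76 and -0.36 ± 0.41, a difference of 1.18 ± 0.37 (95% interval 0.35 to 2.01, p = 0.00978, exact permutation p = 0.0238), and 1.06 without left replicates 4 and 5. In brain after the same injection Il2 had 0.86 ± 0.84 (5 arrays), near the left mean. Of the receptor chains of interleukin 2, Il2ra differed by -0.12 ± 0.20, Il2rb by 0.11 ± 0.70 and Il2rg by -0.93 ± 0.48, where left replicate 3 lay lowest at -2.64.

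Other interleukin genes had differences of both signs. Il24 read -0.94, 0, -0.46, -0.070 and 0.055 on the left and 0.55, 2.72, 2.24, -0.19 and -0.072 on the right, where replicates 2 and 3 were far above the rest. Il13, a cytokine of allergic inflammation, read 0.51, 0.28, 1.84, -1.32 and -1.48 on the left and 3.01, 0.89, 0.15, 0.74 and 1.22 on the right, where every value was positive. The differences were -1.33 ± 0.58 (p = 0.0429, exact permutation p = 0.0794) and -1.24 ± 0.71 (p = 0.111, exact permutation p = 0.175). Il12a, a subunit of interleukin 12, which drives T cell responses, had a difference of the other sign. It read 0.54, 2.73, 1.21, 0.81 and 0.84 on the left, where every value was positive, and 1.30, 0.48, 0.036, 0.30 and 0.095 on the right, with overlap (difference 0.78 ± 0.43, limma p = 0.0958, exact permutation p = 0.103). A probe named IL12A in capitals (probe 120) differed by -0.35 ± 0.74. Il5, Il16 and Il10 differed by 0.63 ± 0.49, 0.57 ± 0.41 and 0.13 ± 0.20. Without right replicate 1 the Il13 difference was -0.78. In all 16 of 22 interleukin probes were lower and 6 higher on the left, with a median difference of -0.23. Over all probes 125 of 232 were lower, and probes of one list share arrays, so nothing particular to the interleukins is read from this. Interleukin receptors had the other balance, with 7 of 19 lower and a median of 0.097. The inflammatory cytokines Il1b and Il6, which sensitise pain pathways, differed by -0.22 ± 0.30 and -0.16 ± 0.34.

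**Figure D4:**
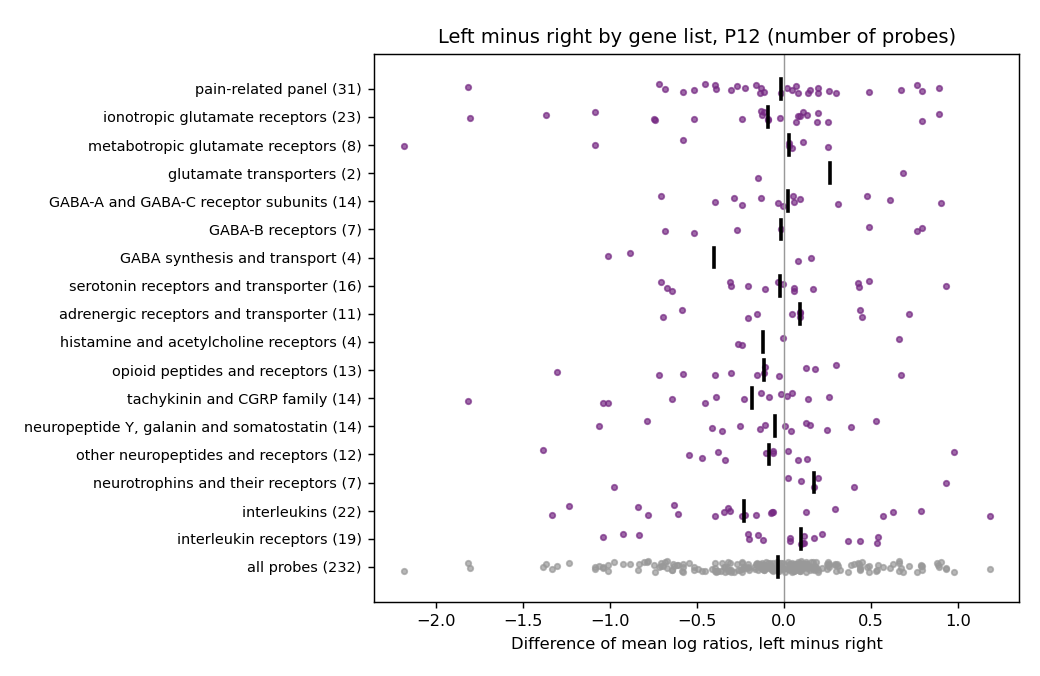
Difference of mean log ratios, left minus right (x axis), for the probes of each gene list and for all 232 probes (y axis, number of probes in brackets), with a black bar at each list's median. The medians of lists with over 10 probes lie between -0.23 for interleukins and 0.097 for interleukin receptors, around -0.036 for all probes.

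A second set of probes was chosen for its ratios on the right side alone. With the 5 right arrays tested against 0 in limma, 13 of 232 probes (5.6%) had an adjusted p under 0.05, 12 negative and 1 positive, and 12 of the 13 had a gene name. With the 5 left arrays 0 of 232 (0%) did. At an unadjusted p under 0.05 there were 59 probes on the right (25.4%) and 29 on the left (12.5%). The count on the right against none on the left does not show a difference between sides: for these 13 probes the limma adjusted p of left minus right ran from 0.741 to 0.956. All 13 had a left mean of the same sign as the right mean, and 10 of 13 were smaller in size on the left, where the median was -1.06 against -1.55 on the right. The choice on right values favours larger right means, so that comparison of sizes is a description. With 1 dye orientation on every array, a ratio away from 0 that both sides share cannot be told apart from a dye effect of the probe.

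At these probes left replicates 4 and 5, which stood apart over the whole array, had the medians nearest 0. The probes were chosen for right values away from 0, and these 2 arrays correlated little with the right arrays. Values near 0 there are therefore no separate observation. The median of the 13 probes was -1.89, -0.99 and -2.07 on left replicates 1, 2 and 3. On left replicates 4 and 5 it was -0.10 and -0.50. Right arrays lay between -1.88 and -0.98. The split was not clean: of the 12 negative probes, 6 lay below -0.5 on left replicate 5, 3 on left replicate 4 and 7 on left replicate 2. For 11 of 13 probes the mean of left replicates 4 and 5 was smaller in size than that of replicates 1, 2 and 3. Which rats had a second inflammation is not labelled, and its part in this split was not tested.

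Il2rb, a receptor chain shared by interleukins 2 and 15, shows this split. Its right arrays read -1.94, -2.17, -2.22, -1.67 and -1.93, the narrowest right spread of the 13 probes. Its left arrays read -2.85, -2.75, -3.71, -0.12 and 0.069: replicates 1, 2 and 3 lay below every right value and replicates 4 and 5 near 0. The means of all arrays were nearly equal, -1.87 ± 1.73 and -1.99 ± 0.22, a difference of 0.11 ± 0.70 (95% interval -1.45 to 1.68). Without left replicates 4 and 5 the sign turned, to -1.12 (limma adjusted p = 0.432, and 0.432 to 0.996 over the settings tried). Cxcr1, a receptor for neutrophil-attracting chemokines, split likewise, with -2.75, -1.78, -2.73, 0 and -0.35 on the left and -2.25, -3.11, -2.13, -1.16 and -1.62 on the right. Left replicate 4 was listed at exactly 0 at this probe, so its value is not read as part of the split. The Cxcr1 difference was 0.53 ± 0.61, and -0.37 without left replicates 4 and 5.

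Ntf3, neurotrophin 3, which supports position-sensing neurons, was negative on all 10 arrays. The left arrays read -2.32, -1.94, -2.41, -0.13 and -1.46 and the right arrays -2.999, -3.04, -1.94, -2.20 and -2.71, overlapping through left replicates 1, 2 and 3. Means were -1.65 ± 0.93 and -2.58 ± 0.49, a difference of 0.93 ± 0.44 (95% interval -0.052 to 1.90, p = 0.061, exact permutation p = 0.0794), and 0.36 without left replicates 4 and 5. Without left replicate 4 alone it was 0.55. In brain Ntf3 had 0.51 ± 0.86, and it alone of the 13 probes had a brain mean of the other sign. Brain means of Cxcr1, Adra2a probe 33, Il2rb and Cckbr, for example, were -1.57, -1.44, -0.83 and -0.74. The other neurotrophin genes differed by -0.98 ± 0.66 (Ntf4), 0.19 ± 0.18 (Bdnf), 0.40 ± 0.34 (the receptor Ntrk2) and 0.022 ± 0.64 (the receptor Ngfr), and the 2 probes of Ntrk3 by 0.097 ± 0.62 and 0.17 ± 0.38. The Ntf4 difference was -0.27 without left replicates 4 and 5.

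Cckbr, the cholecystokinin receptor that opposes opioid analgesia, was negative on all 10 arrays and almost equal on the sides, with -1.39 ± 0.81 and -1.52 ± 0.46 (difference 0.13 ± 0.40, 95% interval -0.75 to 1.01). Npy1r, a neuropeptide Y receptor of dorsal horn neurons, was also negative on all 10 arrays. Its left arrays ran from -3.27 to -0.057 and its right arrays from -1.27 to -0.46, with a difference of -0.41 ± 0.54, which was 0.074 without left replicate 5. Adra2a, the alpha-2A adrenergic receptor through which noradrenaline inhibits pain signals, was negative on all 10 arrays at probe 33, with -2.26 ± 1.10 and -1.56 ± 0.73 (difference -0.70 ± 0.54, and -0.39 without left replicate 3). Its probes 26 and 32 had side means from 0.0058 to 0.30 and differences of -0.21 and 0.09. Il3 probe 101 had -0.85 ± 1.15 and -1.14 ± 0.40 (difference 0.29 ± 0.50), and Il3 probe 132 differed by -0.63 ± 0.60, or -0.093 without right replicate 2. Grik1, a kainate receptor subunit, was the positive member at probe 86, with 0.52 ± 0.66 and 1.26 ± 0.61 (difference -0.74 ± 0.38, p = 0.0801, exact permutation p = 0.0714), and its probe 85 differed by -0.13 ± 0.72.

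**Figure D5:**
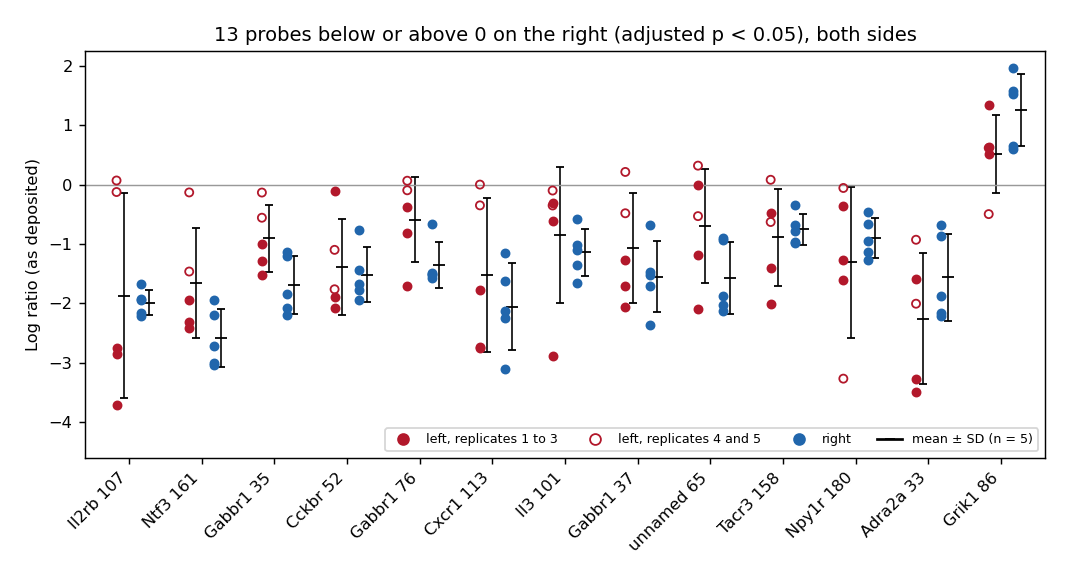
Log ratio on every array (y axis) for the 13 probes whose right mean had an adjusted p under 0.05 against 0 (x axis, gene and probe number), with left in red (open circles for replicates 4 and 5), right in blue, and bars for mean ± SD of 5 arrays. Open circles lie nearer 0 than the filled red ones for Il2rb and Cxcr1, and both sides have means of one sign for all 13 probes.

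Mchr1, a receptor of melanin-concentrating hormone, ranked among the largest differences in size. It read -3.52, 0.38, -0.0040, 0 and -0.80 on the left, with replicate 1 far below, and -0.47, 0.026, 1.88, -0.16 and 1.69 on the right (difference -1.38 ± 0.78, p = 0.105, exact permutation p = 0.175). Without left replicate 1 the difference was -0.70. The panel of 15 pain-related genes held several of the genes above and others close to 0. Grin2b, an NMDA receptor subunit, differed by 0.077 ± 0.27, Npy by 0.15 ± 0.41 and somatostatin, Sst, by -0.14 ± 0.39. The 4 probes of Grin1, the subunit shared by NMDA receptors, gave 0.89, 0.20, 0.065 and -0.13, and the first had the widest right spread (-2.02 ± 2.18). It was 0.16 without right replicate 4, which read -4.93. Over the panel's 31 probes, 15 were higher and 16 lower on the left, 0 had an adjusted p under 0.05 and 1 (Gabbr1 probe 35) an unadjusted one, and the median difference was -0.020.

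Injection on postnatal day 3 (P3) was read on another platform in another table, so its values are set beside those at P12 with no test, and probes of a gene were averaged. At P3 the left minus right differences of the genes above were 0.12 for Il2, 0.0034 for Vip, 0.073 for Tacr2, -0.10 for Gria2, 0.03 for Grm4 and -0.081 for Gabrg3. The P12 values on the same averaged scale were 1.18, 0.97, -1.01, -0.63, -0.97 and 0.90 in the same order, each larger in size. These genes were chosen on P12 values, which favours larger differences at P12. Calcrl had -1.07 at P3 and -1.04 at P12, but at P3 its left SD was 3.09.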

How the data were processed

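The deposited values are log ratios of 2 channels on custom oligonucleotide arrays, read here as log2. RNA was extracted with TRIzol and reverse transcribed with a 3DNA kit, per the labels' protocols. How arrays were scanned, background-corrected and normalized before deposit is not given in the sources used here, and the tables hold no intensities. Values were used as deposited, 72 of 2320 exact zeros included. Of 232 probes 205 had 1 gene symbol and 27 none.

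Left and right arrays (5 each) were compared per probe with limma 3.58.1 (lmFit, eBayes) in R 4.3.3, with Benjamini-Hochberg adjustment over 232 probes and a threshold of 0.05, tested on simulated data, and with two-sided exact permutation tests for single values. At P3, near-identical arrays (left 5 and 6, right 1 and 2) were averaged. The members, the lists and the exclusion of left replicates 4 and 5 were chosen with earlier results of these data known. Named probes are the 12 with the smallest p, the 6 next largest differences, those without overlap, those called against 0 on a side, a 15-gene panel and all probes of these genes. Other genes of the same lists, and unnamed probe 41, were named after their values were seen.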

Additional observations from a re-analysis of the deposited data

Results flagged for a closer look

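In 136 sets of 5 arrays, those of the named probes on each side and of the array measures, 8 (5.88%) held an array far from the other 4. The rule used flags about 1 in 20 sets of independent normal values. These sets share arrays, and some probes were picked for a small p or a large difference. The share is therefore no test of chance. On the left, Adra1d (probe 28) read 0.60 on replicate 5, with the others at 0.0090 to 0.081. Grik3 (probe 89) read 1.54 on left replicate 2 against -0.20 to 0.11. Il3 (probe 101) read -2.88 on left replicate 3 against -0.60 to -0.10. Grm4 (probe 150) read -4.98 on left replicate 4 against -1.01 to 0.11. Grin2b (probe 171), an NMDA receptor subunit, read 0.46 on left replicate 5 against -0.069 to 0.044. On the right, Gabbr1 (probe 76) read -0.66 on replicate 4 against -1.57 to -1.48. Tac1 (probe 79) read 5.62 on right replicate 3 against -1.21 to 0.47. Oprl1 (probe 189) read -0.30 on right replicate 5 against -0.016 to 0.057. These single values lay on 7 of the 10 arrays.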

How the results depend on the processing

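Of the 65 named probes, 35 kept the sign of their left minus right difference under all 20 other settings and 30 did not, and only Gabrg3 passed the threshold in any. In some of these settings the sign could not turn. A fit with the brain arrays, a replicate block, a plain two-sample test and leaving out probes with an exact 0 do not change a difference. Averaging by gene changes nothing for a gene with 1 probe. The 35 are therefore no measure of stability over 20 separate checks. The count of probes with an adjusted p under 0.05 was 0 in limma under every setting, each array left out in turn included, except that it was 1 (Gabrg3) without left replicates 4 and 5. The count at an unadjusted p under 0.05, 9 in the report, was 27 with robust regression and 19 in 1 fit with the brain arrays. With single arrays left out it ran from 7 to 20, with 20 without left replicate 3. The count of probes whose sides do not overlap, 2 in the report, was 1 with array medians subtracted, 1 without probes that hold an exact 0, 5 without left replicates 4 and 5, and 2 to 6 with single arrays left out. With single arrays left out the side difference in array SD ran from -0.056 to 0.051, that in the share of positive probes from -2.8 to -1.62 percentage points and that in array medians from -0.019 to -0.010. Without right replicate 2 the last 2 had an exact permutation p of 0.0159 each, unadjusted. The cause of these shifts was not tested.

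Whether left and right arrays of one number came from the same rats is not labelled, and the main fit did not pair them. Same-numbered deviations correlated at -0.093 to 0.14, and 3 of 10 arrays correlated best with their own number. Such weak correlations cannot show whether the numbers pair the sides. With the number as a replicate block the unadjusted count was 20 and the adjusted count 0 in limma. The number of arrays limits precision, and signal over background is unknown.

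With probes of a gene averaged, the sign turned for Tac1 (probe 27) -0.65, Adra2a (probe 32) -0.27, Gabbr1 (probes 34, 36, 38 and 224) 0.077, Gria2 (probe 81) -0.63, Grik3 (probe 88) -0.86, Il3 (probe 101) -0.17, Grm4 (probe 151) -0.97, Grin1 (probe 175) 0.25 and Penk (probes 199 and 200) 0.053. With array weights, the sign turned for Gria2 probe 81 -0.014, Il6 probe 135 0.047, Grin1 probe 178 -0.16 and Oprl1 probe 189 0.038. With robust regression, which did not converge for every probe, the sign turned for Adra2a probe 26 0.034, Il2rb probe 107 -0.54 and Grin1 probe 178 -0.18. With arrays scaled to one spread, the sign turned for Grin1 probe 178 -0.077, Oprl1 probe 189 0.032, Penk probe 200 0.0014 and Sst probe 214 0.010. Without left replicates 4 and 5, the sign turned for Adra2a probe 26 0.13, Gabbr1 probe 37 -0.13, Gria2 probe 81 -0.074, Grik1 probe 85 0.61, Grik3 probe 88 -0.00020, Il3 probe 101 -0.12, Il2rb probe 107 -1.12, Cxcr1 probe 113 -0.37, Npy probe 159 -0.23, Grin2b probe 171 -0.0074, Grin1 probe 175 0.13, Calca probe 196 -0.42 and Gabbr1 probe 224 0.22. Leaving out 1 array at a time turned the sign, within the ranges given, of Adra2a probe 26 -0.55 to 0.23, Tac1 probe 27 -0.10 to 0.28, Adra2a probe 32 -0.039 to 0.22, Calca probe 47 -0.031 to 0.38, Cckbr probe 52 -0.19 to 0.32, Gria2 probe 81 -0.048 to 0.31, Grik1 probe 85 -0.81 to 0.21, Grik3 probe 88 -0.044 to 0.22, Il2rb probe 107 -0.37 to 0.57, Il6 probe 135 -0.34 to 0.029, Tacr3 probe 158 -0.38 to 0.15, Npy probe 159 -0.095 to 0.42, Grin2b probe 171 -0.075 to 0.27, Grin1 probe 175 -0.43 to 0.15, Grin1 probe 177 -0.095 to 0.36, Grin1 probe 178 -0.41 to 0.36, Npy1r probe 180 -0.73 to 0.074, Oprl1 probe 189 -0.097 to 0.063, Calca probe 196 -0.23 to 0.25, Penk probe 199 -1.26 to 0.18, Penk probe 200 -0.37 to 0.11, Sst probe 214 -0.34 to 0.066 and Gabbr1 probe 224 -0.25 to 0.092.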
